A study of Mus musculus with 4 samples.

Results

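The 10 genes described here mark T cells and natural killer (NK) cells, and they were chosen by name: every probe of the array whose annotation gave exactly 1 gene symbol, and that symbol was Cd5, Cd2, Cd3d, Cd3e, Cd3g, Cd8b1, Klrd1, Nkg7, Gzmb or Prf1. This took 11 probes (Cd8b1 had 2) of the 14411 probes with a single symbol, which stand for 13840 genes, on an array of 33012 probes. The names were picked with the strain comparison and the blank cells of these probes already known, so their strain differences and blanks are given as a description, without a test. The samples were stomachs of male mice on chow, food deprived for 4 h. One group was homozygous B6.CAST-17, a congenic strain that by its name carries CAST chromosome 17 on a B6 background, and the other was wild-type C57BL/6J. Each strain was measured as 2 pools, each of equal RNA from 3 animals, on 1 array per pool, 4 arrays in all. A pool hides the spread between its animals, and the age of the mice is not given in the sources used here. Each difference is the congenic mean less the wild-type mean in log2 units, given ± the SE of the fit, and rests on n = 2 pools per strain. None of the 10 genes lies on chromosome 17.

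T cells read antigen through a receptor whose signal is carried by the invariant CD3 chains (Cd3d, Cd3e and Cd3g) and aided on cytotoxic T cells by the CD8 coreceptor, of which Cd8b1 encodes the beta chain. Cd2 is an adhesion molecule that binds its ligand on the partner cell, and Cd5 is a surface protein that dampens receptor signalling. Klrd1 encodes CD94, which pairs with NKG2 chains on NK cells and some T cells, Nkg7 encodes a membrane protein of cytotoxic granules, and Prf1 and Gzmb encode the pore former perforin and the protease granzyme B, which together kill target cells. In the stomach such cells are scattered between epithelial cells and in the connective tissue beneath them. In RNA from a whole organ, fewer cells of a type and less RNA per cell cannot be told apart.

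RefSeq promoter entries (build GRCm38.p6) matched 7 of the 10 genes. The sequence upstream of the gene is shown for 4 of them, because Cd5 was the brightest member probe with a strain difference, Cd3d and Cd3g are neighbours whose lone values lay on different arrays, and Gzmb had values on both pools of 1 strain only. The stretches are, 5′ to 3′ on the strand of the gene, Cd5 at chr19:10739027-10739224 (minus strand), Cd3d at chr9:44981536-44981768 (plus strand), Cd3g at chr9:44980432-44980681 (minus strand) and Gzmb at chr14:56262335-56262584 (minus strand). Capitals mark matches to AGGAAG, a core bound by ETS factors, or to TGTGGT, a core bound by RUNX factors, on either strand.
Cd5: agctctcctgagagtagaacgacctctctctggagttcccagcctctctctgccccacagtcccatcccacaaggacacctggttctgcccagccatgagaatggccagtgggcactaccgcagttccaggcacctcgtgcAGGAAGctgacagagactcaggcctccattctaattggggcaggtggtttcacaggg
Cd3d: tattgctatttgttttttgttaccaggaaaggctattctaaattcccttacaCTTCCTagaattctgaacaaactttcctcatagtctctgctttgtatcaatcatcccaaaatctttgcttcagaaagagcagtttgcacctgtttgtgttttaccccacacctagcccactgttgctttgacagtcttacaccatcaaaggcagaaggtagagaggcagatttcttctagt
Cd3g: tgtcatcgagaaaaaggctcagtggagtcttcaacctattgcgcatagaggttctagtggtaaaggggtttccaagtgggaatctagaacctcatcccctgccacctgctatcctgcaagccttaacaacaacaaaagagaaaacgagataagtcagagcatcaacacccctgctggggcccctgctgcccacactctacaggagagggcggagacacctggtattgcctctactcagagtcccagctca
Gzmb: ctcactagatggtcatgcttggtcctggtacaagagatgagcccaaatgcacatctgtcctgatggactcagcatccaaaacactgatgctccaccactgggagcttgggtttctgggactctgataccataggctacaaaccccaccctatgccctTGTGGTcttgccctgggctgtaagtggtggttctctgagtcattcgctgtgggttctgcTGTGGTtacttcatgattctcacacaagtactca
The stretch of Cd5 held AGGAAG once, and that of Cd3d held it once on the other strand. That motif was found in 23.7% of the 32851 promoter entries over a window as long as that of Cd5 and in 27.5% over a window as long as that of Cd3d. The Gzmb stretch held TGTGGT 2 times. At least 1 match was found in 14.05% of entries over the same length, and the share with 2 was not computed. The Cd3g stretch held neither. TATAAA was in none of the 4, and was found in 9.08% to 12.37% of entries over windows of these lengths. No 2 of the motifs overlapped in these stretches. These matches are letters only, and the array data do not bear on what binds there. The Cd3g and Cd3d genes point away from each other, with 1337 bases between them.

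Cd5 was lower in the congenic stomach samples, at a high signal on every array. Its probe (754180, chromosome 19) read 16.53 and 16.66 in congenic pools 1 and 2, and 17.95 and 17.73 in wild-type pools 1 and 2. Both congenic values lay below both wild-type values, with 1.07 between the nearest pools, while pools of 1 strain differed by 0.13 and 0.22. The strain means were 16.60 ± 0.093 and 17.84 ± 0.16 (SD, n = 2), a difference of -1.25 ± 0.10, or 2.37-fold higher signal in wild type. In signal the probe stood above 93.8% and 94.2% of the values of the congenic arrays and above 97.2% and 96.8% of those of the wild-type arrays. Of 13475 probes with a value on all arrays, 21 lay further below wild type. With any 1 pool left out the difference stayed between -1.36 and -1.14. This difference was among the reasons for choosing these genes.

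Cd2 was also read on every array, at a moderate signal. Its probe (919536, chromosome 3) read 11.63 and 11.05 in the congenic pools and 11.77 and 12.19 in the wild-type pools. The congenic values were the lower ones, but congenic pool 1 and wild-type pool 1 lay 0.15 apart, less than the 0.58 between the congenic pools. The difference was -0.65 ± 0.25, and it ranged from -0.93 to -0.36 with 1 pool left out. The pools of the 2 strains did not overlap for Cd2 and Cd5, 2 of 3 members compared, as for 49.4% of all probes compared.

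Nkg7 was the third member with a value on all arrays. Its probe (736887, chromosome 7) read 12.79 and 13.37 in the congenic pools and 12.84 and 12.45 in the wild-type pools. The strains overlapped, since congenic pool 1 lay between the wild-type pools, and congenic pool 2 was the highest. The difference was 0.43 ± 0.23, opposite in sign to those of Cd5 and Cd2, and it ranged from 0.14 to 0.72 with 1 pool left out.

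**Figure D1:**
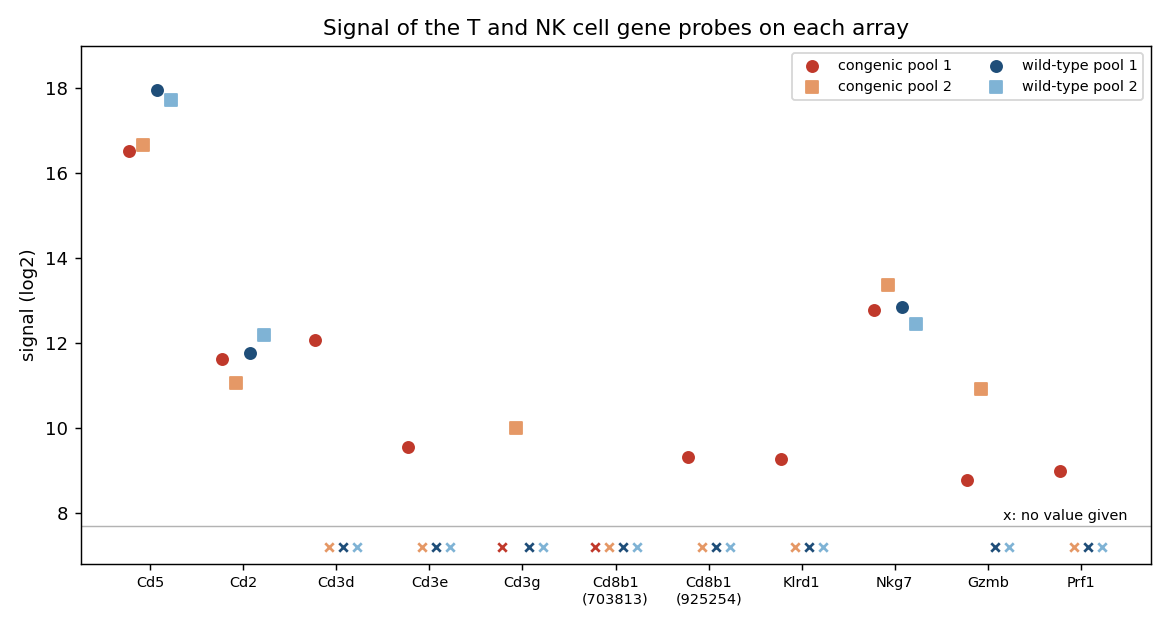
Signal (log2) of the 11 probes of the 10 genes on each array, 1 point per array, with congenic pools in red and orange and wild-type pools in blues, and a cross at the bottom where no value was given. Cd5 shows the wild-type pools above the congenic ones, the pools of Cd2 and Nkg7 lie closer together, and every value of the other probes belongs to a congenic pool.

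The chains of the T cell receptor complex were given a value on 1 array each. Cd3d (probe 453230, chromosome 9) read 12.07 in congenic pool 1 and was blank on the other 3 arrays. Cd3e (probe 626085), which pairs with both other CD3 chains, read 9.56 in congenic pool 1 and was blank elsewhere. Cd3g (probe 840423), the third chain, read 10.004 in congenic pool 2 and was blank on the other 3. The lone Cd3d value was bright for its kind: of 331 other single-symbol probes with a value in congenic pool 1 alone, 98.2% read lower. The same share was 42.0% for Cd3e, and 60.1% of 316 probes for Cd3g in congenic pool 2, so these values lay near the middle. Of the CD8 beta chain, 1 probe of Cd8b1 (925254, chromosome 6) read 9.31 in congenic pool 1 and was blank elsewhere, and the other (703813) was blank on all 4 arrays.

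Apart from Nkg7, the NK and killing genes were likewise sparse. Klrd1 (probe 597390, chromosome 6) read 9.26 and Prf1 (probe 922750, chromosome 10) read 8.99 in congenic pool 1, each without a value on the other arrays. Gzmb (probe 884118, chromosome 14) read 8.77 in congenic pool 1 and 10.93 in congenic pool 2, and was blank in both wild-type pools. Its congenic pools differed by 2.16, more than the strain difference of any member with 4 values. A value on both congenic pools and on neither wild-type pool was held by 6.05% of the 2841 single-symbol probes with a value on 1 to 3 arrays.

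All values of the incompletely read members thus came from congenic arrays. The 7 probes with a value on 1 or 2 arrays held 8 values, 6 in congenic pool 1, 2 in congenic pool 2 and 0 in the wild-type pools. Among all single-symbol probes with a value on 1 to 3 arrays, 28.9% had values on congenic arrays only and 23.7% on wild-type arrays only. The congenic arrays had more values in general, 65.4% and 64.8% of single-symbol probes against 62.9% and 63.5% in the wild-type pools. Blanks were frequent at low signal: of probes whose mean over the other 3 arrays was below 10, congenic pools 1 and 2 were blank for 20.0% and 24.1%, and wild-type pools 1 and 2 for 31.7% and 32.5%. Where that mean was 10 to 12, the shares were 3.86% and 3.88% in the congenic pools and 8.44% and 6.38% in the wild-type pools. For a mean of 12 to 14 they were 0.27% and 0.34%, and 1.87% and 0.44%. Cd3d (12.07), Cd3g (10.004) and Gzmb in congenic pool 2 (10.93) read above 10. These rates cover probes with values on the other 3 arrays, and no incompletely read member had as many. A blank is not a measured absence, and no fold was formed against one. The rule that made a value blank is unknown, and the part of the blank rate in the pattern of the members was not tested.

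Among listed genes of T and NK cell function outside the 10, blanks fell on the arrays of both strains. The lists include genes not confined to these cells, such as Cdh1, the epithelial cadherin. For 7 lists of T and NK cell genes and their ligands, 140 probes had a single symbol. Of these, 37 had a value on all arrays (26.4%, against 54.9% of all single-symbol probes), 64 on none (45.7%, against 25.4%) and 39 on some. Of the 39, 11 had values on congenic arrays only (28.2%), 8 on wild-type arrays only (20.5%) and 20 on both. A value on 1 array alone was in congenic pool 1 for 6 probes, in congenic pool 2 for 2, in wild-type pool 1 for 4 and in wild-type pool 2 for 3. Both pools of 1 strain alone were read for 4 genes. Zap70, the kinase recruited to the CD3 chains, read 11.27 and 10.12 in the congenic pools and was blank in wild type. Gzmk, another granzyme, read 10.001 and 9.17, and Cd7, a T and NK surface protein, read 8.72 and 9.63, also in the congenic pools alone. Prkcq, a kinase of receptor signalling, showed the opposite, with 10.80 and 10.18 in the wild-type pools and blanks in the congenic ones, a pattern held by 3.27% of the 2841 probes above. Cd4, the coreceptor of helper T cells, crossed the strains, with 9.26 in congenic pool 1 and 8.57 in wild-type pool 1.

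**Figure D2:**
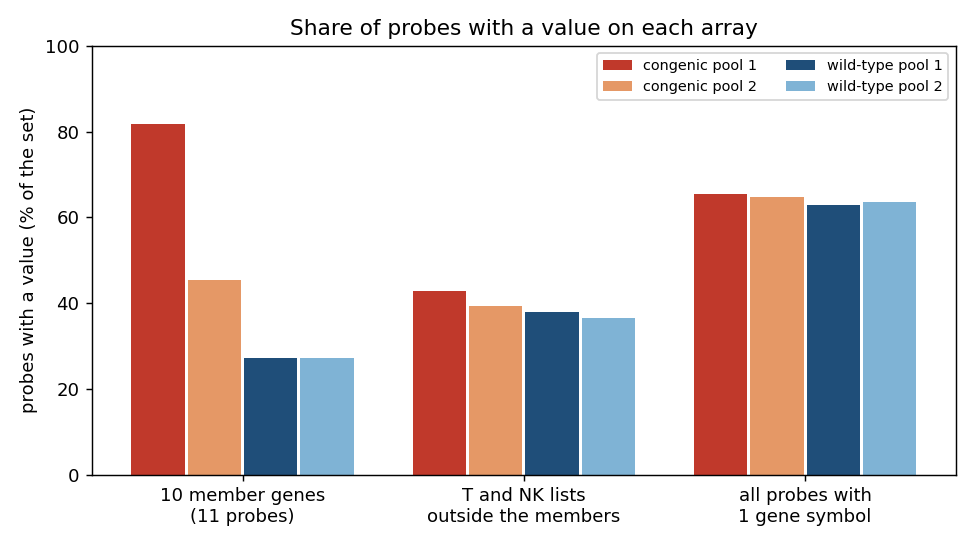
Share of probes with a value on each array (%, bars from 0) for the 11 member probes, the 140 probes of the T and NK lists outside the members, and the 14411 probes with 1 gene symbol. The member bars fall from 81.8% in congenic pool 1 to 27.3% in both wild-type pools, while the list bars lie between 36.4% and 42.9% and those of all probes between 62.9% and 65.4%.

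The labelled cell types rested on few values. Of 11 T cell markers, 9 had a probe, of which 2 (Cd5 and Cd2) had a value on all arrays, 5 on some and 2, Cd6 and Thy1, on none. Of 7 NK cell markers, all with a probe, only Nkg7 had a value on all arrays, 3 had some, and Gzma, Ncr1 and Klrb1c had none. Ptprc, the common leukocyte antigen CD45, was blank on all 4 arrays as well. The genes are therefore described by name, and not as the amount of a cell population. Cd5 stood apart among the T cell markers by its bright signal, and which transcripts its probe reads was not tested. By contrast, 16 of 16 gastric epithelial genes with a probe had a value on all arrays.

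**Figure D3:**
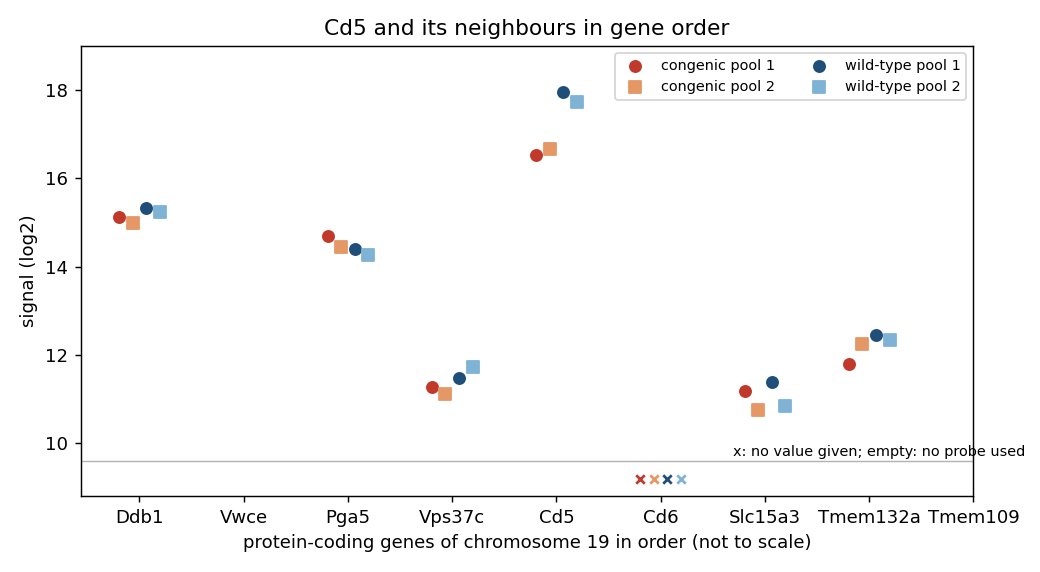
Signal (log2) on each array for Cd5 and the 4 protein-coding genes on either side of it in the order of chromosome 19, drawn at equal spacing; crosses mark blanks, and Vwce and Tmem109 had no probe used here. The wild-type pools lie clearly above the congenic pools at Cd5, and at no other gene shown are the 2 strains separated by as much.

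The genes around Cd5 did not share its difference in size. Cd6, the next gene and the closest relative of Cd5, had no value on any array. Vps37c, on the other side, which encodes a subunit of the endosomal sorting machinery, read 11.27 and 11.12 in the congenic pools and 11.47 and 11.72 in wild type (-0.40 ± 0.17, limma adjusted p = 0.3359). Pga5, a pepsinogen gene and thus a gene of the stomach's digestive secretion, read 14.69 and 14.46 against 14.39 and 14.27 (0.24 ± 0.11, limma adjusted p = 0.3478). Ddb1 (-0.22 ± 0.086), Slc15a3 (-0.14 ± 0.26) and Tmem132a (-0.37 ± 0.17) were also lower in the congenic mean, as Vps37c was, while Pga5 was higher. None of these neighbours passed in limma, and the differences between these genes and Cd5 were not tested.

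Beside Gzmb, a neighbour with a value on all arrays was Gzmf, another granzyme of the same cluster on chromosome 14, named after its values were seen. It read 14.42 and 14.33 in the congenic pools and 14.68 and 14.13 in the wild-type pools (-0.029 ± 0.18, limma adjusted p = 0.9498). Its strains overlapped. Granzyme genes of this cluster are close copies, so the values of Gzmb, Gzmc and Gzmf are uncertain as to the copy they read. Gzmc had a value in congenic pool 1 alone (10.29), and Gzmg and Gzmn were blank on all arrays.

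Across the wider lists, 1 of 37 compared genes fell, 0 rose and 36 did not pass in limma at an adjusted p of 0.05, beside 0.475% of all probes compared. At an unadjusted p under 0.05 there were 8 (3 higher and 5 lower), beside 15.8% of all probes. The median difference was -0.0065, against -0.0020 over all probes compared. The lists covered 183 genes, of which 136 had a probe. The single call was H2-T23, on chromosome 17, which encodes Qa-1, the ligand of the receptor that Klrd1 helps to form. It read 14.21 and 14.27 in the congenic pools and 14.90 and 14.96 in wild type, so the groups did not overlap. Its signal was lower by 0.69 ± 0.079 in the congenic pools (limma adjusted p = 0.03131). By its name the congenic strain carries chromosome 17 from CAST, and whether the probe reads both strains alike was not tested. Leaving out 1 pool, whichever it was, ended the call (adjusted p in limma from 0.06458 to 0.211), which was already known from the comparison of the strains.

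Among the compared receptors and surface proteins of these lists, which leave out the 10 members, the difference was largest for Klrb1b, an inhibitory NK receptor. It read 10.98 and 11.60 in the congenic pools and 10.30 and 10.02 in wild type, with no overlap, but did not pass (1.13 ± 0.28, limma adjusted p = 0.1836). Klrb1b belongs to a family of similar genes, so its values are uncertain. Fcgr3, a receptor for antibody on NK cells and phagocytes, differed by -0.067 ± 0.090. Of the NK receptor and adaptor list, 2 genes were compared and 13 of the 17 genes with a probe had no value on any array. Of the T cell surface list, 2 of 22 genes were compared. Cd48, the ligand of Cd2 in the mouse, differed by 0.31 ± 0.21 and Ly9, a receptor of the same family, by 0.011 ± 0.14. Cd72, a proposed ligand of Cd5, read 10.29 and 10.78 in the congenic pools and 10.29 in wild-type pool 1, with wild-type pool 2 blank; it was named after its values were seen.

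Of 5 compared T cell receptor signalling genes, none passed in limma and 0 reached an unadjusted p under 0.05, beside 15.8% of all probes. The median was -0.033. Bcl10, a scaffold between the receptor and NF-kappa-B, differed by -0.18 ± 0.089, Nfatc1 by 0.15 ± 0.23 and Rasgrp1, an activator of Ras, by -0.096 ± 0.26. Of 6 compared transcription factors none passed in limma. Beside 15.8% of all probes, an unadjusted p under 0.05 was reached by 1. That was Nfil3, a factor needed for NK cell development and also active in other tissues. It read 11.64 and 11.51 in the congenic pools and 10.87 and 10.80 in wild type (0.74 ± 0.17, limma adjusted p = 0.1773), with no overlap. Zbtb7b, which directs helper T cell fate, differed by -0.27 ± 0.13, and Runx3, which directs cytotoxic T cell fate, by 0.16 ± 0.081.

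Of 5 compared cytokine, chemokine and homing genes, none passed in limma. Beside 15.8% of all probes, an unadjusted p under 0.05 was reached by 1. That was Ccl5, a chemokine of activated T and NK cells. It read 11.004 and 10.70 in the congenic pools and 11.46 in both wild-type pools (-0.60 ± 0.19, limma adjusted p = 0.2418). Il18r1, a cytokine receptor chain, differed by 0.40 ± 0.35 and Il15, a survival factor of NK cells, by -0.24 ± 0.26.

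Of 10 compared cytotoxic granule genes, none passed in limma. The list's median was -0.017. An unadjusted p under 0.05 was reached by 4 of the 10, 1 higher and 3 lower, beside 15.8% of all probes compared. The higher one was Serpinb9, an inhibitor of granzyme B, with 11.97 and 11.52 in the congenic pools and 11.20 and 11.15 in wild type (0.57 ± 0.20, limma adjusted p = 0.2701). Rab27a, which docks granules at the membrane, differed by -0.62 ± 0.19, and Stxbp2, which readies their fusion, by -0.27 ± 0.080. Ctsl, a lysosomal protease named after its values were seen, was the fourth (-0.22 ± 0.078). Granule release genes such as Rab27a and Stxbp2 are used by many secretory cells. Of the 8 compared ligands, the 7 other than H2-T23 did not pass, among them Nectin3 (0.19 ± 0.11) and Cdh1, the epithelial cadherin bound by Klrg1 and CD103 (0.14 ± 0.086).

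**Figure D4:**
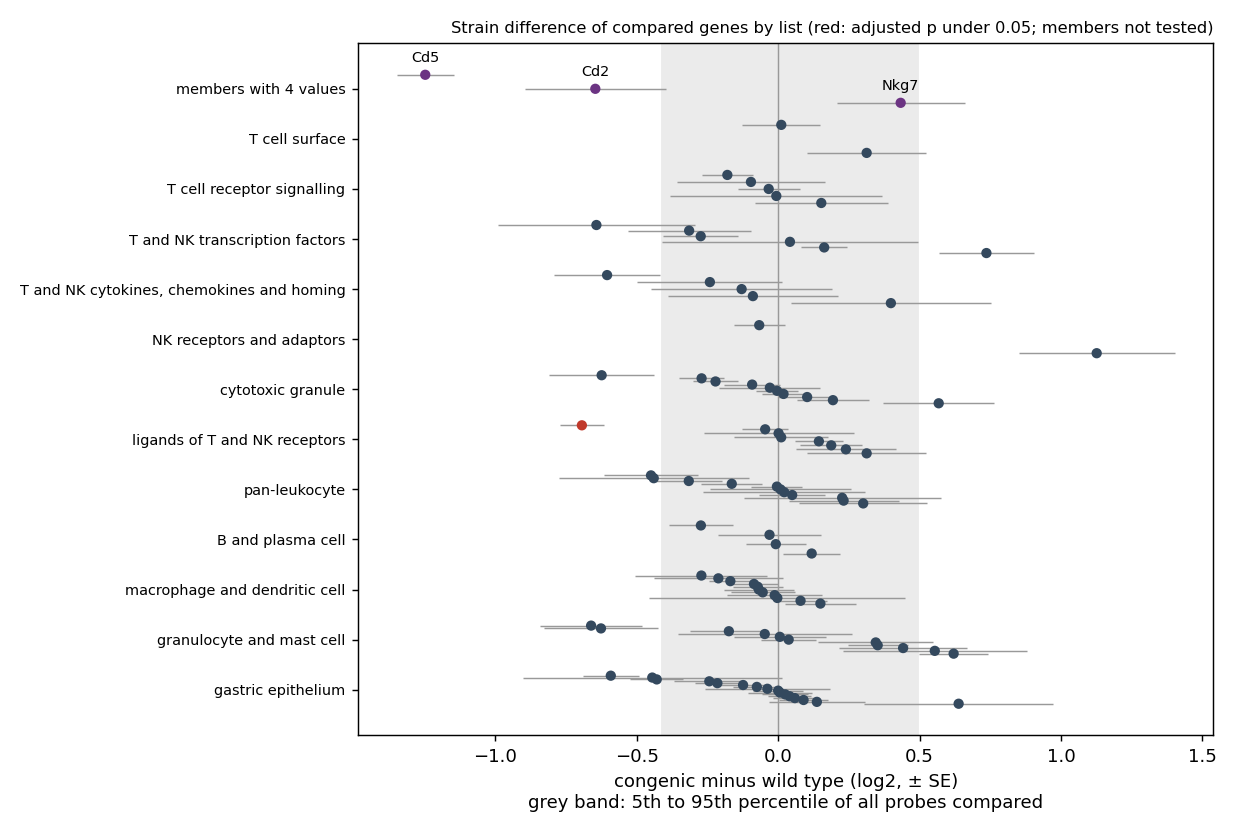
Difference between the strains (congenic minus wild type, log2, points with SE bars) for members with 4 values and for compared genes of each list, with lists of erythroid and lymphoid stroma genes left out of the plot. The band spans the 5th to the 95th percentile of all probes compared, -0.41 to 0.49; Cd5 and Cd2 lie to its left, Nkg7 inside it, and the 1 red point is H2-T23.

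Genes of other cell types gave no call with all 4 arrays. The 7 lists covered leukocytes in general, B and plasma cells, macrophages and dendritic cells, and granulocytes and mast cells. They also covered erythroid cells, lymphoid stroma and gastric epithelium, with 56 compared genes in all. Of these, 0 passed in limma, beside 0.475% of all probes compared. An unadjusted p under 0.05 was reached by 10 (2 higher and 8 lower), beside 15.8% of all probes. Cblif of the chief cells read 20.20 and 20.24 in the congenic pools, and 19.02 and 20.14 in wild-type pools 1 and 2. Without wild-type pool 2 its difference was 1.20, which rests on wild-type pool 1 alone for that strain. The 11 compared pan-leukocyte genes had a median difference of 0.0085, and the mean of their signals lay between 11.40 and 11.41 in the congenic pools and between 11.41 and 11.50 in the wild-type pools. The medians were -0.019 for 4 B and plasma cell genes, -0.068 for 11 macrophage and dendritic cell genes and 0.037 for 11 granulocyte and mast cell genes. Cd79a, a B cell receptor chain, read 10.64 and 10.32 in the congenic pools and was blank in wild type. Tpsab1, a mast cell gene on chromosome 17, read 11.91 and 11.99 in the congenic pools and was also blank in wild type. That pattern was held by 6.05% of the 2841 single-symbol probes with a value on 1 to 3 arrays.

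Markers of 2 neighbouring tissues differed between the strains alongside Cd5. Of 15 compared exocrine pancreas genes, 10 rose and 0 fell in limma, beside 0.475% of all probes compared that were called in either direction. Their median difference was 0.99, with mean signals of 16.25 and 16.22 in the congenic pools and 14.75 and 14.73 in wild type. The log2 of their summed signal, weighted to bright probes, was 21.43 to 21.45 in the congenic pools and 21.04 to 21.07 in wild type. Of 9 compared skeletal muscle genes, 3 fell and 0 rose, with a median difference of -1.08. The log2 of their summed signal was 16.33 to 16.37 in the congenic pools and 17.32 to 17.40 in wild type. These 2 lists were written with their differences known, and their part in the values of Cd5 and the other members was not tested.

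The probes most like each member over the 4 arrays were found by the distance between signals centred on each probe's own mean, among 7907 named probes. For Cd5 they were Mtch1, H2-Aa, Mylpf, Enpp5 and Plin3, at distances from 0.17 to 0.24. Of these, 4 are genes of chromosome 17 and Mylpf, a myosin light chain of skeletal muscle, lies on chromosome 7. Mtch1, a mitochondrial outer membrane protein, was the nearest, with 15.51 and 15.50 in the congenic pools and 16.75 and 16.72 in wild type. For Cd2 the nearest were Tmem17, Dmac2l, Cav1, Traf4 and Repin1, at distances from 0.035 to 0.15. For Nkg7 they were Cfl1, Pdzd3, Tspo2, Hsd3b5 and Lman1l, from 0.038 to 0.094. None of the 15 was another member or a gene of the T and NK lists. With 4 arrays, such likeness describes these arrays only.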

How the data were processed

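Per the labels' protocols, stomach RNA was extracted with TRIzol and 1 microgram was used to make cRNA carrying digoxigenin (Applied Biosystems chemiluminescent kit). The deposited table gives 1 log2 signal per probe and array; the log base was inferred from the range (6.73 to 21.2), and no source used here states how the authors normalized the values or why some cells are blank. Groups and pool numbers came from the titles. Probes were named from the platform annotation where it gave 1 symbol; chromosomes and gene order came from RefSeq (GRCm38.p6). Per the labels no array build is known here, so no probe coordinates are given.

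No further normalization, filter or pseudocount was applied. The 13475 probes with 4 values were fitted with limma 3.58.1 under R 4.3.3, with a two-sided test from eBayes (variance trend on; degrees of freedom 2 residual and 3.97 prior); p-values were adjusted by Benjamini-Hochberg over all of them and called under 0.05. Such p-values reflect only how far pools differ, and the number of arrays limits the precision. On simulated data (this comparison, 13475 probes), 52 of 100 probes changed by 1 log2 and 84 of 100 changed by 2 log2 were called. Of the 140 calls, 4 were false. The simulated noise was independent between probes, without effects shared by a pool, so these shares need not hold for the real arrays. A gene with several compared probes was read from the one with the highest mean. Members, lists and tests were chosen with earlier results of these data known. Named were the members, every list gene that passed, up to 3 genes per T and NK list by p, list genes read in both pools of 1 strain alone, and the 5 nearest probes per member. Named outside this rule, after their values were seen, were Vps37c, Pga5, Ddb1, Slc15a3, Tmem132a, Gzmf, Gzmc, Gzmg, Gzmn and Ctsl. Cd4, Cd72, Ptprc, Cblif, Cd79a, Tpsab1, Cma1 and marker genes without values were named in the same way. Figures were drawn with matplotlib 3.10.9.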

Additional observations from a re-analysis of the deposited data

How the results depend on the processing

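Cd5 stayed lower in the congenic pools in each of its 11 alternatives, from -1.36 to -1.14 with 1 pool left out. Cd2 (-0.93 to -0.36) and Nkg7 (0.14 to 0.72) kept their signs. With 2 pools per strain, leaving 1 out cannot move a difference by more than the spread between pools, so the size of that move is no check. The replicate block and the variance settings leave the difference itself unchanged. Cd2 lay below the signal filter. Over all probes compared, the count of 64 ranged from 15 (without congenic pool 1) to 168 (without wild-type pool 2) with 1 pool left out. It was 35 with the replicate number as a block, 20 without the variance trend, 110 at a threshold of 0.10 and 94 with robust variances. In the T and NK lists the 1 call became 0 with the replicate block, 0 without the variance trend and 0 when any pool was left out (limma; H2-T23 adjusted p = 0.1037 with the block and 0.1782 without the trend), and was 1 under the 6 other alternatives. In the other cell lists the count of 0 ranged from 0 to 1 with 1 pool left out. The pools share a number only: deviations of same-numbered pools correlated at -0.064. Averaging the probes of a gene was not run for the T and NK lists, since 0 of their genes had more than 1 compared probe, nor for the other cell lists, where Cma1 of mast cells had probes at -0.33 and -0.63 and was read from the latter. Signal over background is unknown, so blanks of dim members cannot be placed on the scale.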
